A study of Homo sapiens with 12 samples.

Results

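The cytosolic ribosomal protein genes were examined in SW48 cells, a human colorectal cancer line with microsatellite instability. They encode the proteins of the small and large subunits of the cytosolic ribosome. Members were taken by gene symbol, RPL or RPS followed by a digit plus the stalk and RPSA symbols, after dropping pseudogenes, RPS6 kinases and 6 paralogs or partners that fall outside the group. This gave 73 of the 18665 genes named on the array, 27 of the small and 46 of the large subunit. Of these, 69 were tested among 9484 genes, 25 of the small and 44 of the large subunit. RPL10 and RPL3L lay below the detection filter, and 2 Y-linked members are counted without values. RPLP0, RPSA and RPS27A were not analysed here.

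RNA was measured on 12 Illumina HumanWG-6 v3 arrays, 3 for each of 4 groups. The azacytidine group received 1 µM of 5'-Aza-cytidine, an inhibitor of DNA methyltransferases, for 5 days. The TSA group received 0.5 µM of Trichostatin A, an inhibitor of histone deacetylases, for 2 days. The combined group received azacytidine first and TSA afterwards, and the control group received neither. All groups were the same line in the same medium, and the treatment time differed with the agent, so time in culture and treatment cannot be told apart. The labels do not say whether the 3 arrays of a group came from separate cultures. If they did not, the p-values cover only the technical spread between these arrays.

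Each ribosome holds a single copy of nearly every ribosomal protein, assembled on ribosomal RNA in the nucleolus. The mRNAs of these proteins begin with a run of pyrimidines, the 5′ terminal oligopyrimidine tract, through which mTOR signalling and the RNA-binding protein LARP1 set their translation and stability. Growing tumour cells spend much of their transcription and translation on ribosomes. Unassembled RPL5 and RPL11 bind MDM2 and so stabilise p53. A few ribosomal proteins have a paralog restricted to a tissue, such as RPL10L in testis and RPL3L in striated muscle.

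The annotated start of each gene was searched for the tract. A tract that begins at another base than the annotated start is not counted. RefSeq promoter windows on GRCh38.p14 matched 60 of the 71 members that are not Y-linked. A C at the annotated start followed by at least 4 bases that are each C or T was present in 43 of 60 members (71.7%), against 5.14% of 27305 genes. The sequences below run from 20 bases before the start to the first 20 transcribed bases, with the tract in capitals. They are shown for members that fell, did not pass the test or rose after azacytidine, and 2 paralogs that have no tract at the annotated start. RPL22 lies at chr1:6199576-6199615 on the minus strand and RPL28 at chr19:55385912-55385951 on the plus strand. RPL14 lies at chr3:40457319-40457358 on the plus strand, RPL13A at chr19:49487588-49487627 on the plus strand and RPS13 at chr11:17077648-17077687 on the minus strand. RPS16 lies at chr19:39435930-39435969 on the minus strand, RPS10 at chr6:34426050-34426089 on the minus strand and RPS21 at chr20:62387083-62387122 on the plus strand. RPL36AL lies at chr14:49620607-49620646 and RPL10L at chr14:46651762-46651801, both on the minus strand.
RPL22: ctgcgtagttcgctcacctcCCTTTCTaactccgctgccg
RPL28: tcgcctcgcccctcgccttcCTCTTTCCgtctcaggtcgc
RPL14: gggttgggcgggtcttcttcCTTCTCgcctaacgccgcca
RPL13A: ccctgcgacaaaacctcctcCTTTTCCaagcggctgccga
RPS13: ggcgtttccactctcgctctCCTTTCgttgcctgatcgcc
RPS16: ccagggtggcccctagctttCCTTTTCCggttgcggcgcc
RPS10: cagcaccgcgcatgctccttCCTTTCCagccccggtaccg
RPS21: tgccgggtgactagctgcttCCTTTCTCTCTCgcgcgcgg
RPL36AL: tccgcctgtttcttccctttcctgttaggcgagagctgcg
RPL10L: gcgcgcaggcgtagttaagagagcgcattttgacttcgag

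Other letters were counted on both strands of the same windows, 250 bases before to 50 after the start. CTCTTTCC is itself a C followed by pyrimidines, so it can overlap the tract, as it does in RPL28 above. CGGAAG, the core of ETS-family sites, was in 39 of 60 member windows (65.0%), against 22.6% of all genes. CTCTTTCC was in 10 (16.7%, against 3.70%) and the TATA-box letters TATAAA in 5 (8.33%, against 14%). The member windows held a median of 25 CpG dinucleotides (12 to 44), against a median of 16 over all genes.

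The members gave bright signals. Their median level was 13.61 on the normalized log2 scale, against 8.82 over all genes tested, and 47 of 69 lay among the 948 genes of the top 10%. The highest raw signal on any array was 64958 units for a member probe, of RPS2, and 68811 for a probe of any gene. Raw array medians lay between 117 and 135, between 11742 and 13647 probes were detected per array, and arrays of 1 group correlated at 0.991 to 0.996 across genes. The epithelial markers EPCAM, CDH1, CDH17, KRT8, KRT18 and KRT19 were detected on all 12 arrays, whereas LGALS4 and VIL1 were detected on none. Processed copies of ribosomal protein genes are common in the human genome, so a probe can also bind pseudogene transcripts, and single members are uncertain to that extent.

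Azacytidine alone lowered most ribosomal protein RNAs modestly. Of 69 members, 40 fell and 4 rose with a limma adjusted p under 0.05, and 25 did not pass. In either direction 63.8% of members passed, near the 63.5% of all genes tested. The share that fell was 58.0%, against 31.2% of all genes tested, and the share that rose was 5.80%, against 32.3%. The median log2 change was −0.35 over the members and 0.01 over all genes. Large-subunit genes fell in 28 of 44 and rose in 2, with a median of −0.42, and small-subunit genes fell in 12 of 25 and rose in 2, with a median of −0.16. The difference between the subunits was not tested. Where arrays were compared without a model, all azacytidine arrays lay below all control arrays for 45 members (background 32.5%) and above them for 5 (background 33.4%).

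The shift was seen on each array. The median difference of members from their control mean was −0.34, −0.33 and −0.30 log2 units on the azacytidine arrays, and between −0.03 and 0.03 on the TSA and control arrays. Over all 9484 genes the same median stayed within 0.04 of the control mean on every array. Quantile normalization gives every array the same distribution over all probes, so it held this median close to the control mean in advance. Under median scaling the median log2 change after azacytidine was −0.14 over all genes and −0.59 over the members. Within chip 1 the median log2 change of members was −0.33 and 57 of 69 were negative, and within chip 2 it was −0.32 with 55 negative. All 44 called members kept their direction on both chips, but they were called on these same arrays, so this is a description and not separate support. Member probes made up 7.17 ± 0.20% of the summed raw signal of gene probes in azacytidine and 8.96 ± 0.73% in control (SD, n = 3 each).

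**Figure D1:**
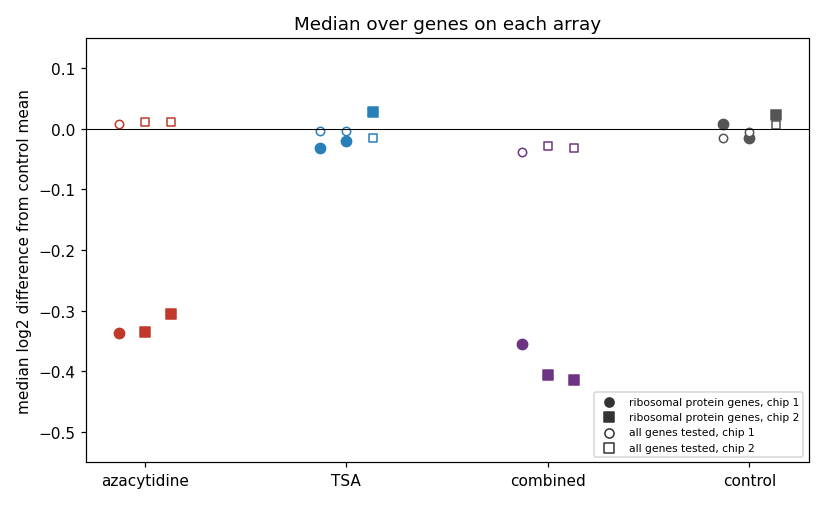
Median log2 difference from the control mean over the 69 ribosomal protein genes (filled) and over all 9484 genes (open) on each of the 12 arrays, with the chip given by the symbol's shape. The azacytidine and combined arrays lie between 0.30 and 0.41 below 0 for the ribosomal protein genes. The medians of all genes stay within 0.04 of 0, where quantile normalization holds them.

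The epithelial markers changed too. Their summed raw signal, not normalized between arrays, was 22425 to 31510 on the azacytidine arrays and 39292 to 55177 on the control arrays. After normalization 5 of the 6 tested fell after azacytidine, against 31.2% of all genes. After the combined treatment 4 fell, against 36.2% of all genes. Set against azacytidine alone, the combined treatment left 3 of these markers higher and 0 lower, against 15.7% and 19.4% of all genes. No fibroblast (5 listed), haematopoietic (4 with a probe) or endothelial (3 listed) marker was detected on any TSA or control array. THY1, CD14 and VWF, 1 of each list, were detected on all 3 azacytidine and all 3 combined arrays. Beyond them, 1 endothelial marker was detected on some azacytidine arrays and 1 fibroblast marker on some combined arrays. Summed raw signals were 1230 to 1378 in azacytidine and 1112 to 1246 in control for the fibroblast list, 1074 to 1233 in azacytidine and 932 to 1052 in control for the haematopoietic list, and 555 to 643 in azacytidine and 372 to 439.9 in control for the endothelial list. The part of these changes in the ribosomal protein result was not tested. In bulk RNA of this single line, a change in the share of cells with a transcript and a change in its amount per cell cannot be told apart.

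RPL22 fell furthest. This large-subunit protein binds RNA, is dispensable for translation in most mouse cells and is often hit by frameshifts in microsatellite-unstable tumours. Its normalized log2 signal was 10.46, 10.54 and 10.58 after azacytidine, against 12, 11.95 and 12.31 in control. The azacytidine arrays lay well under every control array. The log2 change was −1.56 ± 0.13 (SE, n = 3 per group, adjusted p = 2.95e-07), or 2.96-fold lower. Its paralog RPL22L1 was not tested here.

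RPL28, a large-subunit protein specific to eukaryotes, had 8.03, 7.96 and 7.83 after azacytidine, against 9.50, 9.34 and 9.41 in control, a log2 change of −1.48 ± 0.09 SE. RPL37, a small zinc-binding protein, had 6.79, 6.62 and 6.70 after azacytidine, against 7.99, 8.23 and 8.30 in control (−1.47 ± 0.11 SE). RPL30, which in yeast controls the splicing of its own transcript, had 10.40, 10.65 and 10.49 after azacytidine, against 11.87, 11.88 and 11.80 in control (−1.34 ± 0.11 SE). None of the 3 genes overlapped between the groups, and all fell more than 2-fold with adjusted p of 2.34e-07 or lower.

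RPL14 had 12.22, 11.74 and 11.92 after azacytidine, against 13.14, 13.47 and 12.99 in control (−1.24 ± 0.15 SE, adjusted p = 1.07e-05). A second RPL14 probe of similar signal changed by −0.10, so the size for this gene depends on the probe. RPS13, a protein of the small subunit, had 12.54, 12.69 and 12.76 after azacytidine, against 13.66, 13.57 and 13.70 in control (−0.98 ± 0.08 SE). RPL31, which lies near the exit of the peptide tunnel, had 10.02, 10.05 and 9.96 after azacytidine, against 10.77, 11.09 and 10.79 in control (−0.87 ± 0.11 SE, adjusted p = 1.58e-05). The groups were separate for each of the 3. In all, 6 members (8.70%) fell by 1 log2 unit or more, against 5.69% of all genes, and these 6 were of the large subunit.

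**Figure D2:**
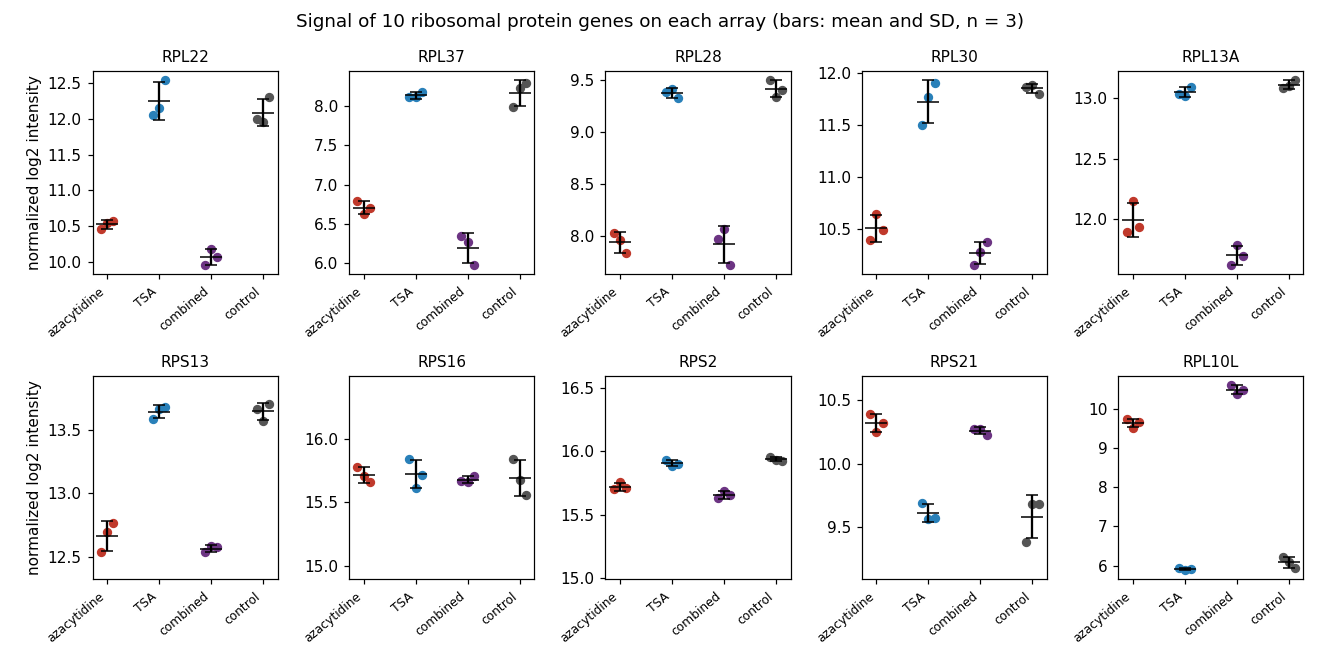
Normalized log2 intensity of 10 ribosomal protein genes on every array, with mean and SD (n = 3), for azacytidine, TSA, combined and control from left to right, each panel on its own scale. RPL22, RPL37, RPL28, RPL30, RPL13A and RPS13 are low on the azacytidine and combined arrays, RPS16 overlaps in all groups, and RPL10L is high only on the arrays with azacytidine.

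RPL13A and RPS18 are common reference genes for quantitative PCR. RPL13A had 11.89, 12.15 and 11.93 after azacytidine, against 13.08, 13.11 and 13.15 in control. It was 2.18-fold lower (log2 change −1.12 ± 0.08 SE, adjusted p = 9.25e-08). RPS18 had 15.04, 14.93 and 15.11 after azacytidine, against 15.29, 15.44 and 15.48 in control (−0.37 ± 0.09 SE, adjusted p = 0.00291). Neither gene's arrays overlapped between the groups.

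RPL5 and RPL11 enter the ribosome together with 5S RNA. RPL11 had 15.01, 14.82 and 14.85 after azacytidine, against 15.39, 15.28 and 15.29 in control, and fell by 0.43 on the log2 scale (SE 0.08, adjusted p = 0.000461). RPL5 had 14.71, 14.72 and 14.76 after azacytidine, against 14.91, 14.93 and 14.84 in control, a change of −0.16 ± 0.07 SE that did not pass the test (adjusted p = 0.0692), although its arrays did not overlap. RPS6, the substrate of S6 kinase, fell by 0.45 (SE 0.08, adjusted p = 0.000201), with 14.51, 14.63 and 14.71 after azacytidine, against 15.03, 15.03 and 15.14 in control.

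Only 4 members passed the test upwards after azacytidine. RPS21, a small-subunit protein, had 10.39, 10.25 and 10.32 after azacytidine, against 9.38, 9.68 and 9.68 in control (log2 change 0.74 ± 0.09 SE, adjusted p = 1.15e-05). RPL29, also known as a heparin-binding protein, had 7.59, 7.71 and 7.77 after azacytidine, against 7.17, 6.91 and 6.89 in control (0.70 ± 0.09 SE, adjusted p = 1.79e-05). RPS7 had 7.78, 7.77 and 7.76 after azacytidine, against 7.45, 7.52 and 7.70 in control. Its change of 0.21 ± 0.08 SE (adjusted p = 0.0402) lost its call under 16 alternatives, and a second probe changed by −0.06.

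RPL10L was the fourth and by far the largest increase. It is an intronless copy of RPL10 used in male germ cells. Its probe read 9.73, 9.52 and 9.66 after azacytidine, against 6.23, 6.08 and 5.94 in control. It was detected on 3 of 3 azacytidine and 3 of 3 combined arrays and on 0 TSA and 0 control arrays, so the control value is only a bound and RPL10L passed the detection filter through the treated arrays alone. The increase was at least 7.81-fold. The fit gave a log2 change of 3.55 (adjusted p = 2.51e-12), which depends on control readings that were not above background. Raw signal averaged 839 units in azacytidine and 165 in control. Both RPL10 probes were undetected on all 12 arrays, with raw means of 122 and 117, and binding of RPL10 RNA to the RPL10L probe was not tested.

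The 250 bases upstream of the RPL10L start, at chr14:46651782-46652031 on the minus strand, hold 19 CpG dinucleotides, shown in capitals because they are the sites that DNA methyltransferases act on. Methylation itself was not measured.
RPL10L upstream: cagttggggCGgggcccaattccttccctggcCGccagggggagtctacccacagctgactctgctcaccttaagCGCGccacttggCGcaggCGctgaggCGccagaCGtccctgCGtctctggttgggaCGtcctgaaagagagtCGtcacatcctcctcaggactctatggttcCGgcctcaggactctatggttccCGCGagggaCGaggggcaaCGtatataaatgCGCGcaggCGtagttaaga

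RPL3L, the muscle paralog of RPL3, was left out of the tests because it was detected on 2 arrays, both of the combined group. Its raw signal was 137, 170 and 144 after azacytidine, 117, 118 and 102 after TSA, 224, 229 and 212 on the combined arrays, and 115, 124 and 117 in control. The combined arrays were the highest and lay close to background. RPL36AL, a close relative of RPL36A, had 13.21, 13.46 and 13.37 after azacytidine, against 13.13, 13.06 and 13.34 in control, and its change of 0.17 ± 0.11 SE did not pass (adjusted p = 0.198). RPL36A changed by 0.19 ± 0.11 SE (adjusted p = 0.156). The groups overlapped for both.

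**Figure D3:**
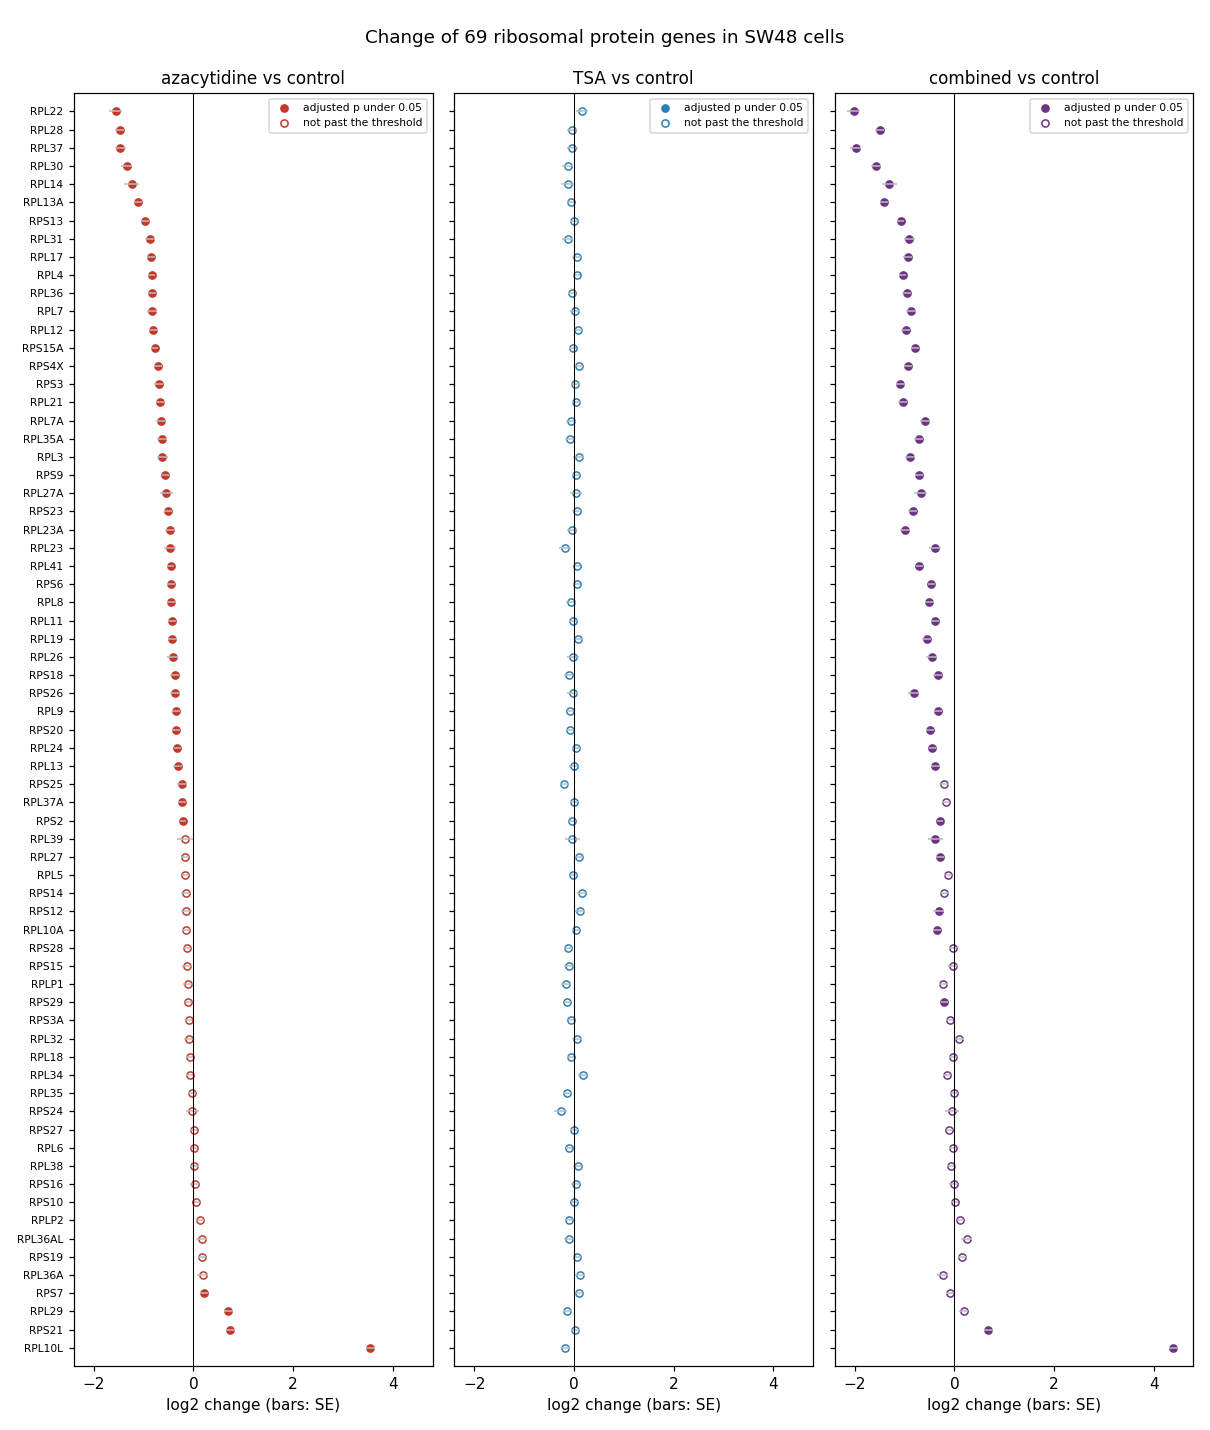
Log2 change against control, with SE, of the 69 tested ribosomal protein genes for azacytidine, TSA and the combined treatment, sorted by the azacytidine change. Filled points passed an adjusted p of 0.05, which was 44 genes for azacytidine, 0 for TSA and 45 for the combined treatment, and RPL10L lies alone at 3.55 and 4.39.

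The change differed along the range of signal. Among 13 members with a mean log2 signal of 10 to 12, 11 fell (median −0.63), and among 15 members at 12 to 14, 13 fell (median −0.57). Among 15 at 14 to 15, 9 fell (median −0.33), and among 17 above 15, 4 fell (median −0.11). Of the other genes in these bands 29.1%, 28.9%, 15% and 7.89% fell, in the same order of signal. In that order 33%, 32%, 42.5% and 44.7% of the other genes rose, and no member of these bands did. Of 9 members below 10, 3 fell and 4 rose (median 0.19), against 32.1% and 32.2% of other genes in that band. RPL10L, which passed the detection filter through the treated arrays alone, was among those that rose. The members thus fell more often than other genes of like signal in the 4 bands from 10 upwards, a description and not a test. Quantile normalization sets genes against each other by rank, and above 15 lay 17 members and 38 other genes. Falls of members and rises of other genes are therefore not independent in the top bands. How far the scaling sets the sizes there was not tested.

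RPS16 and RPS2, chosen after their values were seen, stand for the brightest members. RPS16 had 15.78, 15.71 and 15.66 after azacytidine, against 15.84, 15.68 and 15.56 in control, a change of 0.02 ± 0.09 SE (adjusted p = 0.826), and the groups overlapped. RPS2, the protein at the mRNA entry of the small subunit, had 15.70, 15.76 and 15.71 after azacytidine, against 15.96, 15.93 and 15.92 in control, and fell by 0.22 (SE 0.06, adjusted p = 0.00891).

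Probes of the same gene gave different sizes. Of 115 member probes 103 passed the filter, and 60 of these fell and 9 rose after azacytidine, against 32.1% and 30.2% of all 13915 probes. In the 28 genes with several kept probes, the brightest probes changed by a median of −0.14 and the dimmer ones by −0.38. The mean of the dimmer probes was the more negative in 17 of these 28 genes, and not in the others. Examples chosen after their values were seen were RPL18 (−0.07 for the brighter and −0.87 for the dimmer probe), RPS3A (−0.09 and −0.80) and RPL10A (−0.15 and −0.88). RPS15 was the only gene with probes called in opposite directions (−0.13, −0.96 and 0.48). In RPL6 and RPS24 the dim probe rose, by 1.52 and 1.89, while the bright one changed by 0.01 and −0.02. Which probe reads the gene's main transcript, and whether the brightest probes approach the scanner's limit, was not tested. How far quantile normalization sets the change of the brightest probes was not tested either.

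**Figure D4:**
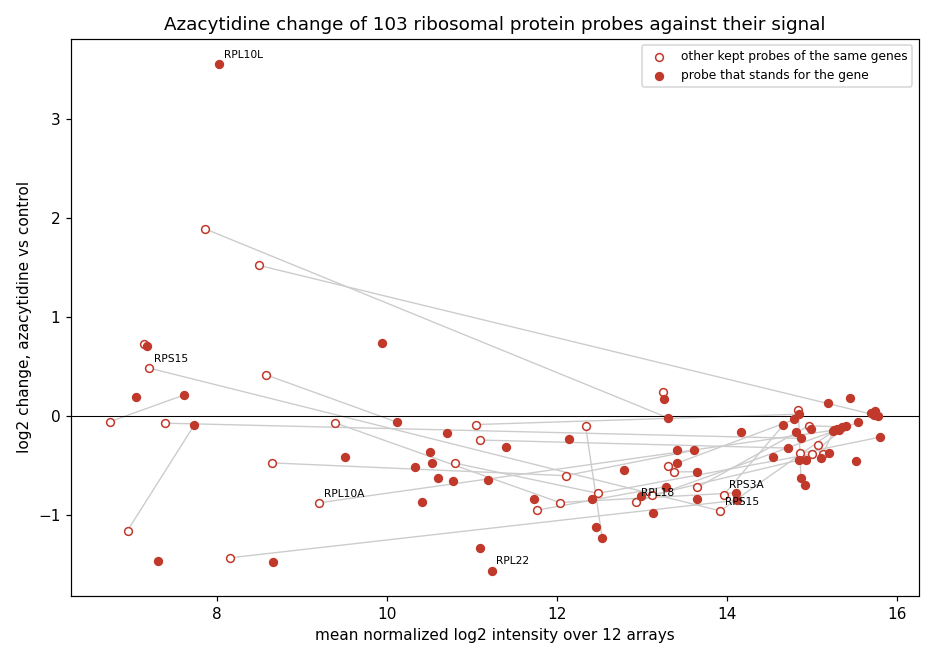
Log2 change after azacytidine against control (vertical axis) and mean normalized log2 intensity over 12 arrays (horizontal axis) for 103 ribosomal protein probes, with probes of a gene joined. Filled points stand for the gene; above 15 most lie near 0, while several dimmer probes of the same genes lie near −0.8 to −1.0.

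TSA alone left no member past the test. The count was 0 of 69, against 0.148% of all genes tested in either direction, 0.0211% lower and 0.127% higher, and 0 members had an unadjusted p under 0.05, against 7.64% of all genes. Changes ran from −0.27 to 0.17 with a median of −0.02, the smallest adjusted p was 0.679, and the 95% interval lay within 0.5 log2 units of 0 for 68 of 69 members and within 1 for all 69. RPL22 had 12.06, 12.16 and 12.55 after TSA, against 12, 11.95 and 12.31 in control, and these overlapped (0.16 ± 0.13 SE, adjusted p = 0.786). RPL13A read 13.04, 13.02 and 13.10 after TSA, a change of −0.06 ± 0.08 SE (adjusted p = 0.876). TSA arrays lay below all control arrays for 3 members (background 6.36%) and above them for 0 (background 4.88%).

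After the combined treatment 43 members fell and 2 rose, against 36.2% lower and 32.8% higher among all genes, or 69.0% in either direction. The share that fell was 62.3%, and the median log2 change was −0.38, against −0.04 over all genes. Large-subunit genes fell in 30 of 44 (median −0.45) and small-subunit genes in 13 of 25 (median −0.20). All combined arrays lay below all control arrays for 46 members (background 37.1%) and above them for 4 (background 34.0%). The azacytidine and combined contrasts use the same control arrays. Of the members, 38 fell in both contrasts, 2 passed downwards in the azacytidine contrast only and 5 in the combined contrast only. RPL10L and RPS21 rose in both, and RPL29 and RPS7 passed upwards in the azacytidine contrast only.

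RPL22 fell to 9.96, 10.17 and 10.07 after the combined treatment, 4.07-fold below control (log2 change −2.02 ± 0.13 SE, adjusted p = 1.83e-08). RPL37 read 6.34, 6.26 and 5.97 after the combined treatment, was detected on 1 of these 3 arrays, and changed by −1.98 ± 0.11 SE (adjusted p = 3.6e-09). RPL13A read 11.62, 11.78 and 11.70 after the combined treatment (−1.41 ± 0.08 SE, adjusted p = 6.93e-09). All 3 genes lay below the control arrays given above. RPL30, RPL28 and RPL14 changed by −1.58, −1.50 and −1.31, and RPS13 by −1.08.

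RPS3, which lines the mRNA entry and also acts in DNA repair, had 14.21, 14.30 and 14.30 after the combined treatment, against 15.27, 15.29 and 15.51 in control (−1.09 ± 0.09 SE, adjusted p = 1.76e-07). RPS21 had 10.28, 10.27 and 10.23 after the combined treatment, and rose by 0.68 (SE 0.09, adjusted p = 1.97e-05). RPL10L read 10.60, 10.36 and 10.48 after the combined treatment, at least 13.99-fold above control. RPL5 again did not pass (−0.13 ± 0.07 SE, adjusted p = 0.138), and RPL11, RPS6 and RPS18 fell by 0.40, 0.46 and 0.34 (adjusted p = 0.000677, 0.000128 and 0.0049).

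The combined treatment was next set against azacytidine alone. TSA followed azacytidine, so what TSA added and any difference in time cannot be told apart. In all 14 members were lower and 1 was higher, against 19.4% lower and 15.7% higher of all genes, or 35.1% in either direction. The 20.3% of members that were lower is near that background, so the count says little about these genes as a group. RPL23A, near the peptide exit where nascent chains are received, had 9.85, 9.88 and 10.01 after the combined treatment, against 10.33, 10.60 and 10.38 after azacytidine (−0.52 ± 0.10 SE, adjusted p = 0.00123). RPL29 had 7.12, 7.21 and 7.21 after the combined treatment, against 7.59, 7.71 and 7.77 after azacytidine (−0.51 ± 0.09 SE, adjusted p = 0.00074). RPS26, at the mRNA exit of the small subunit, had 9.76, 10.14 and 10.09 after the combined treatment, against 10.27, 10.59 and 10.48 after azacytidine (−0.45 ± 0.11 SE, adjusted p = 0.00619). In these 3 genes the arrays did not overlap.

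RPL37, RPL22, RPL36A, RPS3 and RPL21 were also lower in this comparison, by 0.37 to 0.51 on the log2 scale. RPL10L was higher by 0.84 (SE 0.09, adjusted p = 2.3e-05). The count was 1 on chip 1 alone, with 1 array a group, and 9 on chip 2 alone, with 2. All 15 called members kept their direction on both chips, but they were called on these same arrays, so this too is only a description.

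Against TSA alone, 44 members were lower and 5 higher after the combined treatment, against 36.4% and 33.4% of all genes, or 69.8% in either direction. RPL22 changed by −2.19, RPL28 by −1.46, RPL30 by −1.45 and RPL13A by −1.35. RPL37 changed by −1.95, a value that rests on combined arrays of which 1 of 3 detected it. RPL4, which lines the peptide tunnel, had 13.06, 13.07 and 13.08 after the combined treatment, against 14.15, 14.11 and 14.22 after TSA (−1.10 ± 0.08 SE, adjusted p = 4.76e-08). RPL10L was at least 15.9-fold higher. RPL36AL was higher by 0.34 (adjusted p = 0.015) and the stalk gene RPLP2 by 0.22 (adjusted p = 0.0247), but under median scaling these changes were −0.14 and −0.22 and did not pass.

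The interaction sets the azacytidine effect in the presence of TSA against that in its absence, as their difference, and it passed for 11 members (15.9%), below the 22.7% of all genes. It was negative for 10 and positive for 1, against 11.1% and 11.6% of all genes. The most negative values were RPL22 (−0.62 ± 0.18 SE, adjusted p = 0.0261), RPL36A (−0.54 ± 0.16 SE, 0.0258), RPL23A (−0.48 ± 0.14 SE, 0.0256), RPL37 (−0.48 ± 0.15 SE, 0.0383) and RPL21 (−0.42 ± 0.12 SE, 0.0288). RPL10L had 1.01, a value that rests on undetected TSA and control arrays, so that only its difference of 0.84 between combined and azacytidine, given above, lies between detected groups. The count fell to between 3 and 7 without azacytidine array 2 or 3, TSA array 2 or 3, any 1 combined array, or control array 1 or 2, and was 10 to 12 without any of the others.

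The tract was found in members that fell, rose or did not pass. Of the 42 tested members with it at the annotated start, 24 fell and 2 rose after azacytidine (median −0.32). Of the 17 tested without it at that base, 7 fell and 2 rose (median −0.15). After the combined treatment 24 and 10 fell, with medians of −0.38 and −0.29. These are counts without a test, and RPL22, RPS16 and RPS21, which moved differently, all carry the tract in the sequences above.

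Other genes of ribosome production were read from lists. Of 15 tested mRNAs known to carry the tract outside the ribosome, 10 fell and 1 rose after azacytidine (median −0.34), against 31.2% and 32.3% of all genes. After the combined treatment 12 fell and 1 rose, against 36.2% and 32.8%. The initiation factors EIF4B, EIF3L and EIF3F fell by 1.23, 1.11 and 1.03 (adjusted p = 1.37e-05, 5.86e-07 and 3.07e-07), and the elongation factor gene EEF1D rose by 0.33 (adjusted p = 0.00169). FAU, which encodes the small-subunit protein eS30 as a ubiquitin-like fusion, fell by 0.31 after azacytidine (adjusted p = 0.00509) and by 0.51 after the combined treatment.

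Of the paralogs outside the group, all 4 tested (RPS27L, RPL39L, RPL26L1 and RPL7L1) passed the test upwards after azacytidine and after the combined treatment, against 32.3% and 32.8% of all genes, and 0 changed after TSA. RPS27L, a p53 target, had 13.16, 13.16 and 13.19 after azacytidine, against 11.85, 11.87 and 12.01 in control (log2 change 1.26 ± 0.08 SE, adjusted p = 1.35e-08). RPL26L1 rose by 0.79 and RPL7L1 by 0.33. The raw mean of RPL7L1, not normalized between arrays, was 30675 in azacytidine, 30169 in combined and 31267 in control. Its rise thus appears only after normalization. RPL39L is a testis-enriched copy of RPL39. It was detected on 3 of 3 azacytidine and 3 of 3 combined arrays but on 0 TSA and 0 control arrays. RPL39L thus passed the filter through the treated arrays alone, so its place among the 4 cannot be read against the background. Its increase after azacytidine was at least 1.01-fold and after the combined treatment at least 1.04-fold, so the size of its change is not settled. RPS27L was lower after the combined treatment than after azacytidine by 0.38 (adjusted p = 0.0017).

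Of 7 ribosomal protein chaperones, which escort single proteins to the nucleolus, 4 rose and 1 fell after azacytidine, against 32.3% and 31.2% of all genes, and 2 rose and 1 fell after the combined treatment, near its background of 32.8% and 36.2%. HEATR3, an import factor for RPL5 that was detected on 1 of 3 control arrays, rose by 0.86 after azacytidine (SE 0.16, adjusted p = 0.000506). GRWD1, whose yeast form binds Rpl3, rose by 0.74, and PDCD2, which binds RPS2, by 0.40. LTV1, an assembly factor of the small subunit, rose by 0.28 (adjusted p = 0.0288), and its arrays overlapped between the groups. LTV1 lost its call under 8 alternatives and PDCD2 under 3. Of 8 tested regulators of ribosomal protein synthesis, 5 fell and 1 rose after azacytidine, against the same shares of all genes. DDIT4, an inhibitor of mTOR signalling, read 9.24, 9.13 and 9.06 after azacytidine, against 13.32, 13.31 and 13.39 in control (log2 change −4.20 ± 0.07 SE, adjusted p = 3.77e-14). EIF4EBP1, a translation repressor that mTOR inactivates and that was detected on 2 of 3 azacytidine arrays, fell by 1.23 (adjusted p = 0.000271) and RPS6KB1, which encodes S6 kinase, by 0.56 (adjusted p = 0.000607). MYC, an activator of ribosomal protein genes, fell by 0.50 after azacytidine (adjusted p = 0.000135) and by 0.82 after the combined treatment, and MTOR rose by 0.54 after azacytidine (adjusted p = 7.39e-05).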

How the data were processed

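The authors read the arrays out with GenomeStudio, and lumi 2.6.0 is also named, per the submitters' processing notes. They deposited a linear intensity per probe and array, without normalization between arrays as the values show, each with a detection p-value, per the file headers. The authors' own processed log2 values were deposited as well, quantile-normalized as their equal quartiles show; they served as an alternative, and the sources used here do not give their transform.

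Intensities were corrected with limma 3.58.1 (R 4.3.3) by normexp on the detection p-values with an offset of 16, quantile-normalized and taken to log2. Of 48801 probes, the 13915 detected (p under 0.01) on 3 or more of 12 arrays were kept. Of all probes, 27577 had 1 gene symbol in the platform annotation, 13 had several genes and the rest are unnamed here. A gene was its brightest kept probe, which gave 9484 genes. A limma model with 4 group means gave 5 contrasts and the interaction, two-sided, with Benjamini-Hochberg adjustment over all genes and a threshold of 0.05. It was run on simulated independent normal values with few changed genes and no normalization step. That run does not cover the scaling, or data in which most genes change as here. Where a group was undetected, the fold is a bound: the bright group's mean over that of the dim group, with each dim array set to its lowest signal of any detected probe unless the probe itself read higher. Signals of different probes are not on a common scale of RNA abundance.

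For each comparison of treatments the rule named up to 8 members each way with the largest change past the threshold and no overlap between arrays, up to 5 each way for the interaction, a preset set of paralogs and reference genes, and up to 4 of each other list; not all are printed. Members and lists were chosen with earlier results of these data known. The arrays filled 2 chips of 6, each with all 4 groups but unevenly. Chip 1 held replicates 1 and 2 of TSA and control and replicate 1 of azacytidine and combined. Replicate numbers come from the sample titles. Deviations of same-numbered arrays correlated at 0.42, 0.20 and 0.20 between combined and azacytidine, so these were also fitted as pairs. For the other 4 pairs of groups the correlations were not all above 0.1. Promoter sequences came from RefSeq tables on GRCh38.p14.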

Additional observations from a re-analysis of the deposited data

Results flagged for a closer look

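The azacytidine change with TSA differed from that without TSA, by the interaction term of the limma model, in 11 ribosomal protein genes (15.9%), below the 22.7% of all genes tested. Under median scaling 1 was positive and 1 negative, and RPL37 lost its call in 18 alternatives, RPL36A in 12, RPL21 in 11, RPL23A in 10 and RPL22 in 8. The difference was 1.01 for RPL10L, whose TSA and control arrays were all undetected, so this size is not a measurement between detected groups. It was −0.62 for RPL22, −0.54 for RPL36A, −0.48 for RPL23A, −0.48 for RPL37, −0.42 for RPL21, −0.42 for RPS3, −0.41 for RPS7, −0.38 for RPL29, −0.38 for RPS23 and −0.31 for RPL41, all on the log2 scale. In RPL22, RPL23A, RPL37, RPL21, RPS3, RPS23 and RPL41 both azacytidine changes were negative and the one with TSA was the more negative. RPL3L lay outside the tests and was detected on 2 arrays, both of the combined treatment, and on 0 control arrays.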

How the results depend on the processing

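Members past the threshold numbered 34 to 53 after azacytidine (44 in the model used), 35 to 58 after the combined treatment (45) and 0 after TSA under every alternative run. Median scaling moved the median of all genes to −0.14 after azacytidine and −0.32 after the combined treatment, with member medians of −0.59 and −0.80; of all genes it then called 30.6% lower and 17.9% higher after azacytidine, and 44.9% and 16.1% after the combined treatment, against 31.2%, 32.3%, 36.2% and 32.8% in the model used. Reversed were the changes of RPL36AL (−0.14), RPLP2 (−0.22) and LTV1 (−0.23) against TSA under median scaling. For the combined treatment against azacytidine the count of 15 was 1 on chip 1 and 9 on chip 2, where fewer arrays were fitted and a lone array was assumed to vary like the other groups. The interaction count of 11 was 2 under median scaling, 3 under cyclic loess, 3 without the filter and 17 with chip as a block. It was also lower on either chip alone, where some groups had 1 array. The cause of these moves was not tested. Leaving out 1 array gave 41 to 44 for azacytidine, 0 to 0 for TSA, 43 to 46 for combined, 11 to 15 for combined against azacytidine, 44 to 50 against TSA and 3 to 12 for the interaction. With the replicate block the counts were 46, 0, 47, 17, 49 and 13 in the same order, and it moved none by over 1.5 times. With only probes below a raw mean of 20000, chosen after seeing the data, 42 of 52 members passed in either direction after azacytidine, with a median of −0.56. The share of all genes under this setting is not given here, so the count cannot be weighed against it. The interaction has no value when only the arrays compared are fitted. Among single genes, 186 values lost and 29 gained a call over all alternatives, and 3520 kept their side. Dim members such as RPL37 and RPL29 are limited by signal close to background.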
